A study of Mus musculus with 24 samples.

Results

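Genes of the TGF-beta, activin and BMP signals were followed in ID8 Trp53-/- cells, a mouse ovarian cancer cell line that lacks functional p53, across 4 treatments of 6 days. The 10 genes were taken by symbol from the 25229 genes of the deposited table: the TGF-beta ligands Tgfb1, Tgfb2 and Tgfb3, the ligands Inhba, Bmp2, Bmp4 and Gdf15, the receptors Tgfbr1 and Tgfbr2, and the inhibitor Smad7. The rule that defines them uses gene symbols and no measured value, although they were proposed with earlier results of these data known. All cells came from 1 line with the same Trp53 deletion. Cells received the vehicle DMSO, cisplatin (750 nM in the labels), AU-15330 (2.5 uM in the labels), or cisplatin and AU-15330 at the same concentrations (the combination), with 6 replicates numbered 1 to 6 in each group. The study's methods give a different cisplatin concentration for these cells, and which was used is not settled here. Cisplatin is a DNA-damaging chemotherapy, and AU-15330 is a PROTAC that directs the SWI/SNF chromatin remodelers SMARCA4 and SMARCA2 to degradation. The labels do not say that replicates came from separate cultures, so p-values measure the spread between these libraries, which may be technical.

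TGF-beta, activin and BMP ligands are secreted dimers that bind pairs of type I and type II serine/threonine kinase receptors. The activated receptors phosphorylate SMAD proteins, SMAD2 and SMAD3 for TGF-beta and activin and SMAD1, SMAD5 and SMAD9 for BMPs, which enter the nucleus with SMAD4. In epithelial cells TGF-beta restrains proliferation, and several of these ligands belong to the secretome of senescent cells. The inhibitory SMADs are themselves induced by the pathway and dampen it.

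Library totals over all genes ran from 17592588 to 25260009 reads. Of the 25229 genes, 12941 passed the filter on low counts and were tested. Among the 10 genes, 9 passed, and Bmp2 did not. Levels are given in CPM (counts per gene scaled to library depth with TMM factors), and 3 counts corresponded to 0.120 to 0.186 CPM, a limit that covers counting error only. Krt8 (221 to 631 CPM), Krt18 (104 to 816 CPM), Msln (99.9 to 618 CPM) and Wt1 (490 to 1090 CPM) were expressed in every library, and Krt19 ranged from 4.15 to 2520 CPM and Upk3b from 0.164 to 233 CPM. Krt7 was at 5.16 CPM or less, and the epithelial markers Epcam and Cdh1 had at most 2 and 89 counts in any library. The summed epithelial list ranged from 2230 to 3790 CPM with DMSO, 2380 to 3100 CPM with cisplatin, 334 to 420 CPM with AU-15330 and 370 to 467 CPM with the combination. In the same order, the summed mesothelial list ranged from 1230 to 1540, 1570 to 1820, 615 to 811 and 853 to 990 CPM. Both lists were thus lower in every library with AU-15330 than in any without it. The leukocyte markers Ptprc, Adgre1 and Cd3e had at most 5 counts, and with Cd68 (6.36 to 52.9 CPM) their list summed to 6.46 to 19, 6.81 to 13.2, 16.7 to 53 and 23.9 to 42.2 CPM. The endothelial markers Cdh5 and Kdr had at most 3 counts, and with Pecam1 (0.261 to 12.4 CPM) their list summed to 2.87 to 4.28, 8.24 to 12.5, 0.261 to 0.715 and 0.483 to 1.1 CPM. The fibroblast list, nearly all of it Dcn, summed to 19.2 to 41.8, 146 to 224, 44.4 to 69.4 and 47.6 to 79.2 CPM. The part of these differences in the results below was not tested. In bulk RNA, fewer cells that express a gene and less of its RNA per cell cannot be told apart.

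Replicate numbers formed sets in several of the genes. With DMSO, Bmp4 was at 215 to 240 CPM in replicates 1 to 3 and at 145 to 157 CPM in replicates 4 to 6, and Tgfb1 was at 159 to 170 CPM and at 110 to 124 CPM. The labels give no batch for these numbers. Where a member's call was lost in replicates 1 to 3 alone, the value there is given beside it, from a fit of fewer libraries.

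**Figure D1:**
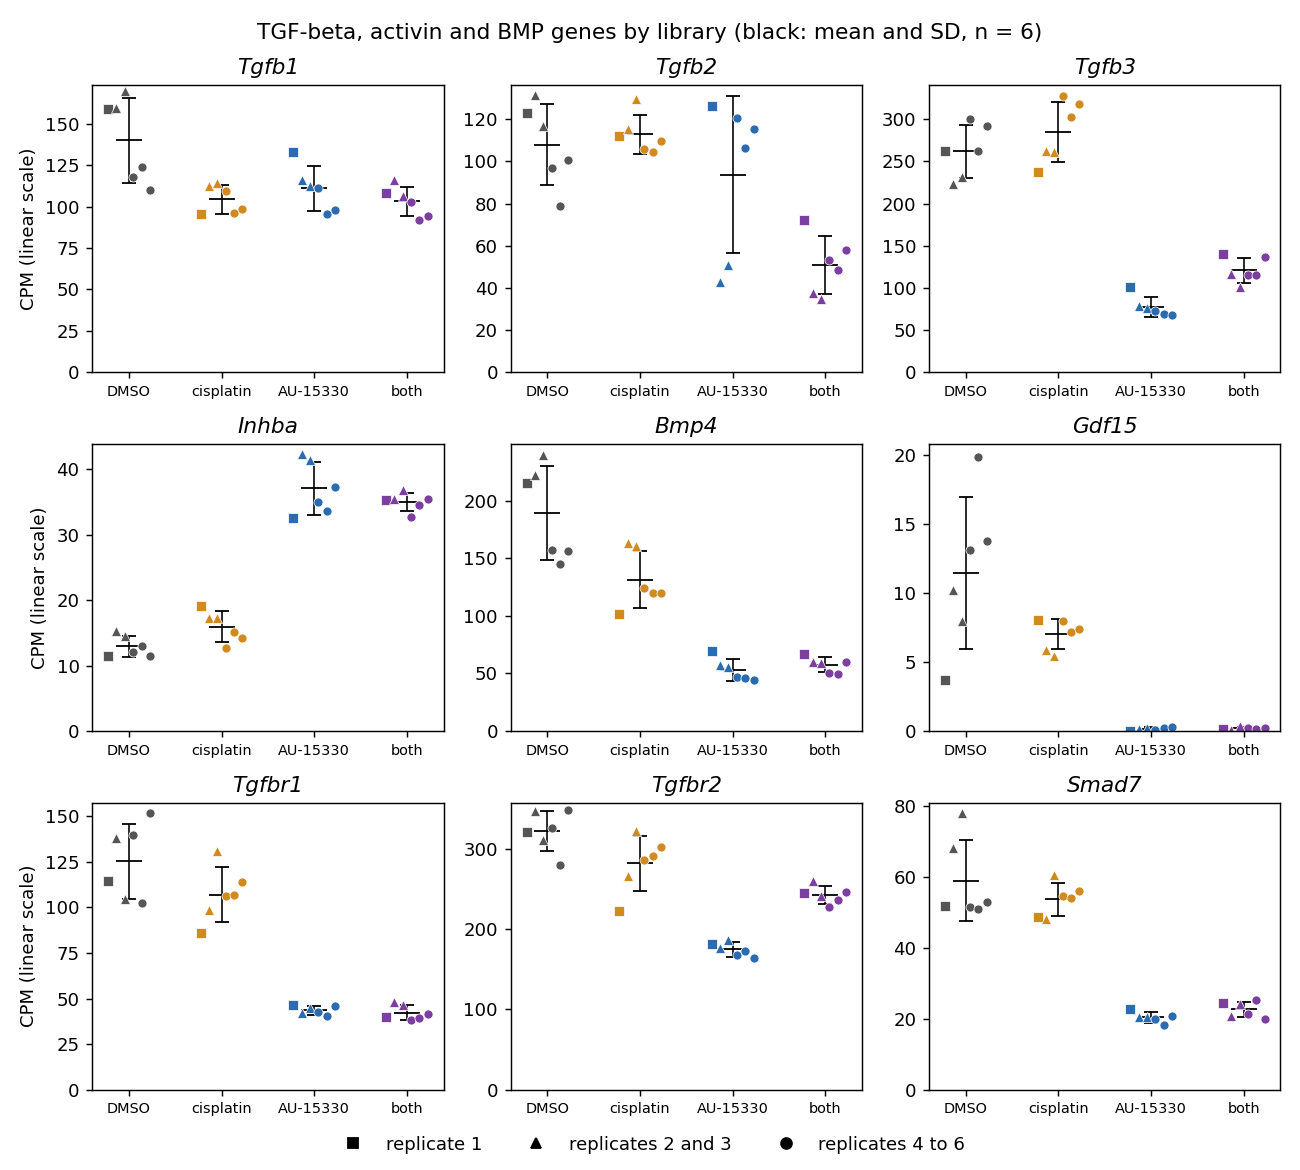
CPM of the 9 tested genes in each of the 24 libraries (linear axis from 0) for DMSO, cisplatin, AU-15330 and both drugs, with marker shapes for replicate 1, replicates 2 and 3, and replicates 4 to 6, and black bars for the mean and SD of 6 libraries. Gdf15 lies near 0 in every library with AU-15330, Inhba lies at 32.6 CPM or more there, and Tgfb2 with AU-15330 alone is split between 42.9 and 50.7 CPM in replicates 2 and 3 and at least 106 CPM in the others.

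Promoter sequence is shown for the gene that fell furthest, the gene that rose, and the gene whose change depended on the replicate. The 250 bases before the RefSeq start (GRCm38.p6) are printed 5′ to 3′ on the strand of the gene, in lower case, with matches to the searched motifs in capitals. They lie at chr8:70632457-70632706 (minus strand) for Gdf15, chr13:16011601-16011850 (plus strand) for Inhba and chr1:186705990-186706239 (minus strand) for Tgfb2.
Gdf15: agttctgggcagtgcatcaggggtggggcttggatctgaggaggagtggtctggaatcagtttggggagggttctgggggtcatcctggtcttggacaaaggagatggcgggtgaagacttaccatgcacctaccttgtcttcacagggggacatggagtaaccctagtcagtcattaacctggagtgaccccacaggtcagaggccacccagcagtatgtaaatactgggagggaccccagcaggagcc
Inhba: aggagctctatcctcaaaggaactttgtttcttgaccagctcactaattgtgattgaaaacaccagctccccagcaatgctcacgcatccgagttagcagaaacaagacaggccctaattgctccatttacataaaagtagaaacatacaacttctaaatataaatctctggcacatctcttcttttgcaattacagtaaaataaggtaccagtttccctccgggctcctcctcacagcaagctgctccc
Tgfb2: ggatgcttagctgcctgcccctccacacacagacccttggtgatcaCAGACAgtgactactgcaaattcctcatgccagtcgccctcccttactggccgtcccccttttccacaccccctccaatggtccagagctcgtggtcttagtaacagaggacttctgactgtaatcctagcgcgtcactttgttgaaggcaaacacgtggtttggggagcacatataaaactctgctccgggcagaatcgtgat
Motifs were searched on both strands in windows of 300 bases, which hold these 250 bases and 50 after the start: CAGACA (a SMAD element, in 21% of 32851 windows), GTCTAGAC (a SMAD palindrome, in 0.213%), TGANTCA (AP-1, in 7.81%) and TGATGNAA (C/EBP-ATF, in 3.97%). Among the windows available for the members, CAGACA matched at position −204 from the start of Tgfb2 and at −203 from the second start of Tgfbr1. No other motif matched these windows, which covered Tgfb1, Tgfb2, Inhba, Bmp4, Gdf15, Tgfbr1 and Tgfbr2. Tgfb3, Bmp2 and Smad7 had no window here, so the absence of a match does not extend to them. The upstream GC content was 43.2% for Inhba, 53.6% for Tgfb2 and 56.4% for Gdf15, against a median of 52.4% over all windows. A match is a description and does not show binding.

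Of the 9 tested genes, AU-15330 lowered 7 and raised 1, with and without cisplatin. Both sets of 7 included Gdf15, which passed the filter only through libraries without AU-15330 and so could only come out lower. Against DMSO, the gene that rose was Inhba and the 1 that was not called was Tgfb2, while over all tested genes 73.4% changed (36.2% higher and 37.2% lower). Against cisplatin, the combination also gave 7 lower genes and 1 higher, where 68.1% of all tested genes changed (35.4% higher and 32.7% lower). The median log2 fold change of the 9 genes was −1.52 with AU-15330 against DMSO, where the median over all tested genes was −0.003, and −1.19 for the combination against cisplatin, where it was 0.0389. Cisplatin alone gave smaller differences. It raised 1 and lowered 4 of the 9 genes, where 51.7% of all tested genes changed (26% higher and 25.7% lower), with a median size of 0.23 on the log2 scale for the 9 genes and 0.28 over all tested genes.

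**Figure D2:**
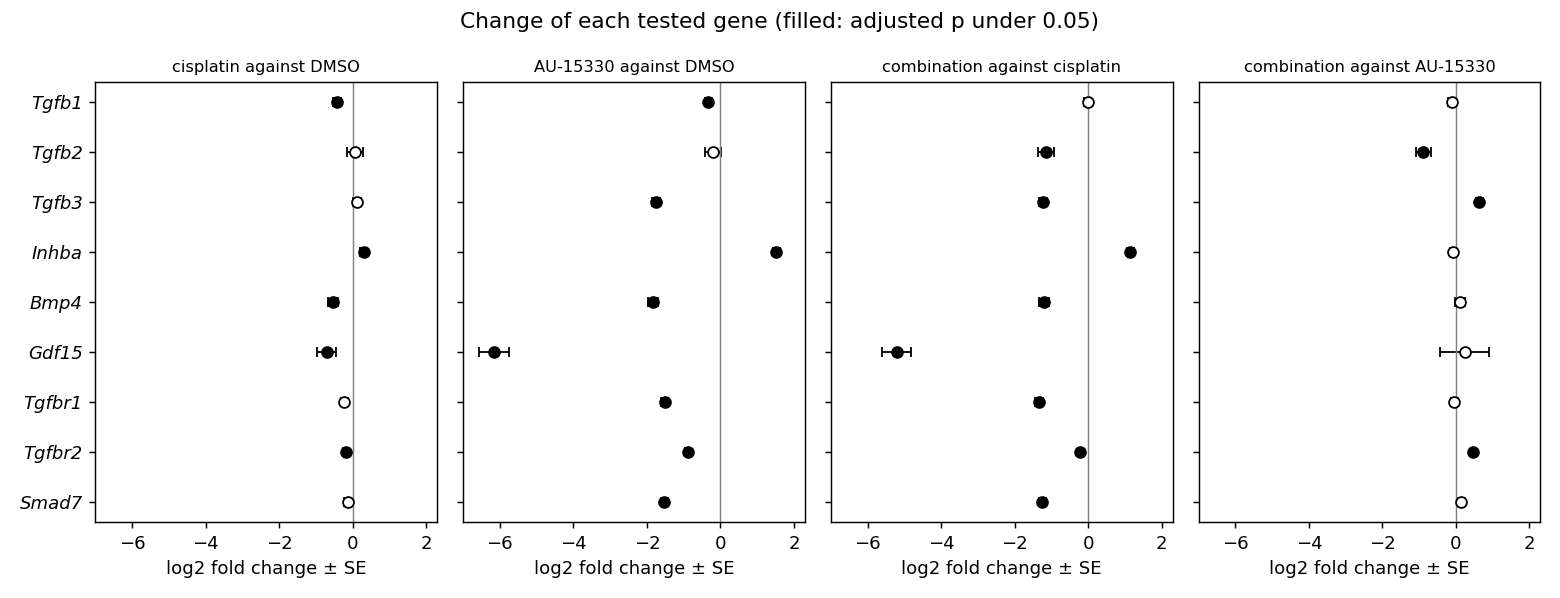
Log2 fold change with its standard error for the 9 tested genes in 4 comparisons (edgeR quasi-likelihood test, filled points for an adjusted p under 0.05). Points of AU-15330 against DMSO and of the combination against cisplatin lie left of 0 for 7 filled genes each and right of 0 for Inhba, and those of the combination against AU-15330 lie near 0 except for Tgfb2, Tgfb3 and Tgfbr2.

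Gdf15, a divergent ligand of the superfamily that cells secrete under stress and that signals through GFRAL, changed the most. The gene lies on chromosome 8 (GRCm38, 70629393 to 70632456, minus strand). With DMSO, Gdf15 had 60, 251 and 368 counts in the lowest, median and highest library, and with cisplatin 121, 180 and 193. With AU-15330 it had 0 to 5 counts (20 over 6 libraries), and with the combination 1 to 8 (24 over 6 libraries). Every library with AU-15330 lay below every library without it. The ratio of DMSO to AU-15330 was 75.4 (95% counting interval 48.7 to 123.9) and that of cisplatin to the combination 38.4 (25.6 to 60.2). The fitted log2 fold changes were −6.16 (SE 0.40, edgeR adjusted p = 2.58e-13) and −5.21 (SE 0.39, adjusted p = 7.84e-12). Its 0 to 8 counts with AU-15330 were too few for the low-count filter, which it passed only through libraries without that drug. These 2 tests could therefore only find it lower, and their p-values add no support to the counts. Cisplatin alone lowered Gdf15 by 0.71 on the log2 scale (SE 0.25, adjusted p = 0.0217), but the lowest DMSO library, replicate 1 at 3.71 CPM, lay below all cisplatin libraries (5.47 to 8.06 CPM). In replicates 1 to 3 alone the difference was −0.19 (adjusted p = 0.743), and leaving out replicate 5 gave −0.50 (adjusted p = 0.148). The call was also lost without replicate 2, 4 or 6 (adjusted p = 0.0516, 0.0603 and 0.071) and with only DMSO and cisplatin in the fit (adjusted p = 0.0511).

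Inhba encodes the beta A subunit that dimerizes to form activin A, and it was the 1 gene that rose (chromosome 13, 16011851 to 16031621, plus strand). Its lowest, median and highest levels were 11.4, 12.5 and 15.2 CPM with DMSO and 12.7, 16.2 and 19.1 CPM with cisplatin. They were 32.6, 36.2 and 42.4 CPM with AU-15330 and 32.7, 35.4 and 36.8 CPM with the combination. The libraries with AU-15330 all lay above those without it, and the DMSO and cisplatin libraries overlapped. AU-15330 raised Inhba 2.87-fold against DMSO (log2 1.52, SE 0.10, adjusted p = 1.77e-13) and 2.20-fold against cisplatin when the drugs were combined (log2 1.14, SE 0.10, adjusted p = 5.55e-11). The 1.23-fold rise with cisplatin (log2 0.30, SE 0.10, adjusted p = 0.0115) fell to 0.20 on the log2 scale without replicate 1 (adjusted p = 0.111), and was 0.37 in replicates 1 to 3 alone (adjusted p = 0.0524) and 0.20 in replicates 4 to 6 alone (adjusted p = 0.0879). With only DMSO and cisplatin in the fit, the rise was 0.30 (adjusted p = 0.0664). The effect of AU-15330 was smaller with cisplatin than without it (interaction −0.38, SE 0.13, adjusted p = 0.0295), a call that was lost in replicates 1 to 3 alone (−0.52, adjusted p = 0.0911), in replicates 4 to 6 alone (−0.27, adjusted p = 0.1), without replicate 1 (−0.35, adjusted p = 0.0548) and when any of replicates 2, 3, 5 or 6 was left out (adjusted p from 0.0529 to 0.0641).

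Tgfb3, on chromosome 12 (86056745 to 86079041, minus strand), was the most abundant of the TGF-beta ligands per length in DMSO. It was at 223, 262 and 300 CPM with DMSO, 238, 282 and 328 CPM with cisplatin, 68.2, 74.8 and 101 CPM with AU-15330 and 101, 116 and 140 CPM with the combination (lowest, median and highest). All libraries with AU-15330 lay below all libraries without it, and the 2 groups with AU-15330 met only at 101 CPM. The fall was 3.37-fold against DMSO (log2 −1.75, SE 0.11, adjusted p = 6.26e-14) and 2.36-fold against cisplatin (log2 −1.24, SE 0.10, adjusted p = 6.97e-11). Between the groups with AU-15330, the combination was 1.56-fold higher (log2 0.64, SE 0.10, adjusted p = 2.24e-05), in 6 of 6 same-numbered pairs. The interaction was 0.52 (SE 0.15, adjusted p = 0.0079), and 0.37 in replicates 1 to 3 alone (SE 0.19, adjusted p = 0.23). Cisplatin alone gave 0.12 (SE 0.10, adjusted p = 0.337), with an interval from −0.09 to 0.34.

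Tgfb2, on chromosome 1 (186622792 to 186705989, minus strand), differed between replicates with AU-15330 alone. In replicates 2 and 3 it was at 42.9 and 50.7 CPM, and in the other 4 at 106 to 127 CPM. With DMSO it was at 79.0, 109 and 131 CPM, and with cisplatin at 105, 111 and 130 CPM (lowest, median and highest). With the combination it was at 34.8, 50.8 and 72.2 CPM, again lowest in replicates 2 and 3. All combination libraries lay below all DMSO and all cisplatin libraries. With AU-15330 alone, replicates 2 and 3 lay below those libraries, and the other 4 lay within the DMSO and the cisplatin ranges. AU-15330 against DMSO gave −0.20 (SE 0.21, adjusted p = 0.387). Replicates 4 to 6 alone gave a rise of 0.30 (SE 0.08, adjusted p = 0.0051), and replicates 1, 4, 5 and 6, a choice made after these values were seen, gave 0.26 (adjusted p = 0.0746). The combination was 2.22-fold lower than cisplatin (log2 −1.15, SE 0.21, adjusted p = 3.54e-05, and −0.89 with adjusted p = 7.77e-06 without replicates 2 and 3) and 1.85-fold lower than AU-15330 alone (log2 −0.88, SE 0.21, adjusted p = 0.0017). In replicates 1 to 3 alone, the difference from AU-15330 was −0.64 (SE 0.34, adjusted p = 0.214). The effect of AU-15330 was lower with cisplatin (interaction −0.95, SE 0.30, adjusted p = 0.0163). The interaction was −1.15 without replicates 2 and 3 (adjusted p = 0.00018), was not called when replicate 4, 5 or 6 was left out (adjusted p = 0.0676, 0.0758 and 0.0531), and was −0.58 in replicates 1 to 3 alone (adjusted p = 0.487).

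Tgfb1, on chromosome 7 (25687002 to 25705077, plus strand), moved the least. It was at 110, 141 and 170 CPM with DMSO and 95.4, 104 and 114 CPM with cisplatin. With AU-15330 it was at 95.6, 112 and 133 CPM, and with the combination at 92.2, 104 and 116 CPM. The libraries of every pair of groups overlapped. It was lower than DMSO by 0.42 with cisplatin (SE 0.10, adjusted p = 0.00097) and by 0.33 with AU-15330 on the log2 scale (SE 0.10, adjusted p = 0.0043). With library totals in place of TMM factors, the AU-15330 difference was −0.20 (adjusted p = 0.0599). The combination differed from cisplatin by −0.02 (SE 0.10, adjusted p = 0.898), with an interval from −0.22 to 0.19.

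Because Tgfb3 fell furthest among the TGF-beta ligands, their makeup shifted. Counted per kilobase of exons, the sum of the 3 ligands was 124 ± 5.54 CPM per kb with DMSO and 124 ± 9.99 with cisplatin (SD, n = 6). It was 61.2 ± 9.16 with AU-15330 and 65.0 ± 6.53 with the combination. Libraries with AU-15330 reached at most 78.0 and those without it at least 109. Tgfb3 made up 62.5% ± 6.50 of this sum with DMSO, 67.5% ± 3.63 with cisplatin, 37.7% ± 4.23 with AU-15330 and 54.9% ± 2.15 with the combination. With AU-15330 alone, Tgfb1 made up 36.4% ± 4.64, so that Tgfb1 and Tgfb3 did not differ beyond their spread there. These shares depend on the annotated exon lengths, and reads of Tgfb3 and Tgfb2 may include those of genes on the opposite strand that share 420 and 124 of their exonic bases, since the use of strand in counting is not given.

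**Figure D3:**
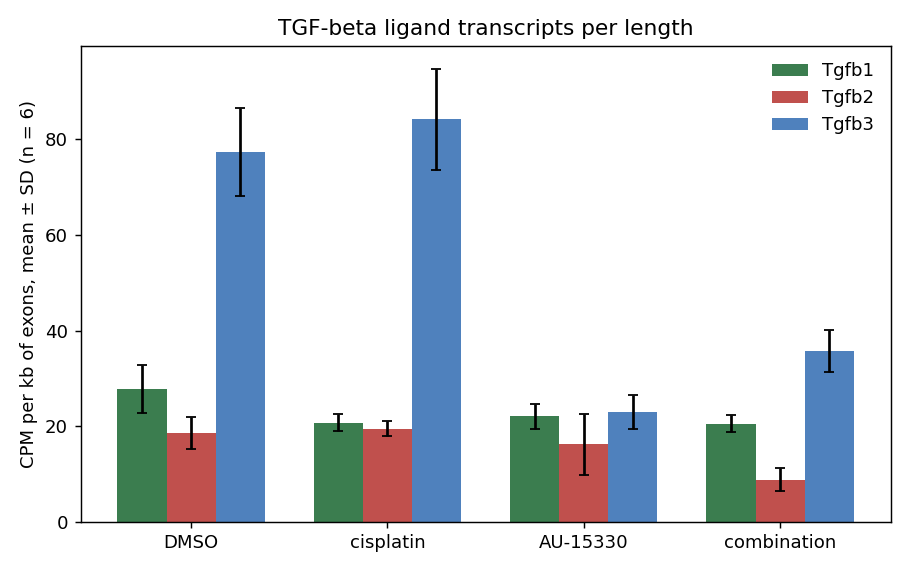
Mean level of Tgfb1, Tgfb2 and Tgfb3 in CPM per kb of exons with the SD of 6 libraries, for the 4 treatments (bars from 0). Tgfb3 stands at 77.4 with DMSO and 84.2 with cisplatin, and at 22.9 with AU-15330, where Tgfb1 stands at 22.04 and Tgfb2 at 16.2 with the widest error bar.

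The BMP ligands differed from each other in level. Bmp4, a ligand that signals through SMAD1, SMAD5 and SMAD9 (chromosome 14, 46383520 to 46390669, minus strand, with 89 exonic bases shared with a gene on the opposite strand), was at 145, 186 and 240 CPM with DMSO and 102, 122 and 163 CPM with cisplatin. It was at 44.0, 51.3 and 69.3 CPM with AU-15330 and 49.6, 59.2 and 66.9 CPM with the combination. The libraries with AU-15330 all lay below those without it. AU-15330 lowered it 3.56-fold against DMSO (log2 −1.83, SE 0.14, adjusted p = 8.41e-12), and the combination was 2.29-fold below cisplatin (log2 −1.19, SE 0.14, adjusted p = 2.63e-08). Cisplatin lowered Bmp4 by 0.53 on the log2 scale (SE 0.14, adjusted p = 0.0022), and the interaction was 0.64 (SE 0.19, adjusted p = 0.0127). In replicates 1 to 3 alone the interaction was 0.66 (SE 0.22, adjusted p = 0.064). Bmp2, on chromosome 2 (133552159 to 133562885, plus strand), had 0 counts with DMSO and with AU-15330, 2 with cisplatin and 4 with the combination over 6 libraries each, and no change was detectable at this depth.

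Both TGF-beta receptors fell with AU-15330, by different amounts. Tgfbr1 encodes the type I receptor (chromosome 4, 47353222 to 47414931, plus strand). It was at 102, 126 and 152 CPM with DMSO, 85.8, 106 and 131 CPM with cisplatin, 40.3, 43.5 and 46.2 CPM with AU-15330, and 38.3, 40.6 and 48.3 CPM with the combination. The groups with AU-15330 lay below both groups without it and overlapped each other. The fall was 2.87-fold against DMSO (log2 −1.52, SE 0.10, adjusted p = 3.39e-13) and 2.53-fold against cisplatin (log2 −1.34, SE 0.10, adjusted p = 5.66e-12). The difference of cisplatin from DMSO, −0.23 (SE 0.10, adjusted p = 0.0533), passed the threshold without replicate 3 (−0.31, adjusted p = 0.0096), without replicate 5 (−0.28, adjusted p = 0.0354), in replicates 4 to 6 alone (adjusted p = 0.0299) and without the low-count filter (adjusted p = 0.0327).

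Tgfbr2 encodes the type II receptor, which binds the ligand first (chromosome 9, 116084293 to 116175360, minus strand). It was at 280, 324 and 349 CPM with DMSO, 223, 289 and 323 CPM with cisplatin, 164, 174 and 187 CPM with AU-15330, and 228, 243 and 260 CPM with the combination. The AU-15330 libraries lay below those of every other group, and the combination overlapped cisplatin. It fell 1.84-fold with AU-15330 against DMSO (log2 −0.88, SE 0.07, adjusted p = 3.07e-11), and 1.16-fold with the combination against cisplatin (log2 −0.21, SE 0.07, adjusted p = 0.0103). The interaction was 0.67 (SE 0.10, adjusted p = 1.65e-05), and the combination was 1.39-fold above AU-15330 alone (log2 0.47, SE 0.07, adjusted p = 8.68e-06). The combination against cisplatin gave −0.15 with library totals (adjusted p = 0.0539) and in replicates 1 to 3 alone (adjusted p = 0.302). The fall with cisplatin alone was 0.19 on the log2 scale (adjusted p = 0.0265) and was not called without replicate 1, 2, 4 or 6 (adjusted p from 0.0521 to 0.12), nor with library totals (−0.12, adjusted p = 0.141), in replicates 1 to 3 alone (−0.28, adjusted p = 0.0856) or in replicates 4 to 6 alone (−0.13, adjusted p = 0.112).

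Smad7, the inhibitory SMAD that blocks receptor signaling and is induced by the pathway, fell with the receptors. It was at 50.9, 52.3 and 77.9 CPM with DMSO and 48.2, 54.3 and 60.4 CPM with cisplatin. It was at 18.1, 20.5 and 22.8 CPM with AU-15330 and 20.03, 22.7 and 25.2 CPM with the combination. Groups with AU-15330 lay below groups without it. The fall was 2.88-fold against DMSO (log2 −1.53, SE 0.10, adjusted p = 3.11e-13) and 2.37-fold against cisplatin (log2 −1.25, SE 0.10, adjusted p = 2.09e-11), while cisplatin alone gave −0.13 (SE 0.10, adjusted p = 0.255).

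Cisplatin added to AU-15330 changed 3 of the 9 genes, where 41.7% of all tested genes changed (22.2% higher and 19.5% lower). These were Tgfb3 and Tgfbr2, which rose, and Tgfb2, which fell. Against DMSO, the combination changed all 9 tested genes, where 73.3% of all tested genes changed, 8 lower and Inhba higher. Between the single drugs, 7 genes differed, where 73.1% of all tested genes did, all but Tgfb1 and Tgfb2, and Inhba was the 1 that was higher with AU-15330. The interaction was called for 5 of the 9 genes, where it was called for 33.7% of all tested genes.

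The other genes of the pathway were taken as 91 genes in 5 lists by role, of which 56 were tested. With AU-15330 against DMSO, 13 of the 56 rose and 33 fell (median log2 fold change −0.44), where 73.4% of all tested genes changed, 36.2% higher and 37.2% lower. With the combination against cisplatin 9 rose and 35 fell (median −0.54), where 68.1% of all changed, 35.4% higher and 32.7% lower. With cisplatin against DMSO, 20 rose and 15 fell, where 51.7% of all changed. The combination gave 15 higher and 11 lower genes against AU-15330 (41.7% of all changed) and 13 higher and 31 lower against DMSO (73.3% of all). AU-15330 against cisplatin gave 11 higher and 36 lower (73.1% of all), and the interaction was positive for 14 and negative for 10 (33.7% of all).

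Target genes of SMAD signaling had the lowest median of the lists with AU-15330 against DMSO and with the combination against cisplatin, and the highest for the combination against AU-15330 and for the interaction. With AU-15330, 7 of 9 tested target genes fell (median −2.38), and the other 2, Id2 and Klf10, were not called (0.58 and 0.07), where 37.2% of all tested genes fell, and the combination against cisplatin gave 6 lower and 1 higher (median −0.96), where 32.7% of all fell and 35.4% rose. The combination against AU-15330 gave 6 of the 9 higher and 3 not called (median 0.76), where 22.2% of all tested genes rose. The interaction was positive for 6, negative for 1 and not called for 2 (median 1.80), where it was called for 33.7% of all. Tsc22d1, a TGF-beta-stimulated gene, fell by 2.46 on the log2 scale with the combination against cisplatin (SE 0.11, adjusted p = 2.48e-16). Id2 and Id3 are inhibitors of helix-loop-helix factors and BMP targets. Id2 rose with the combination against cisplatin (log2 2.38, SE 0.35, adjusted p = 1.06e-06). Cisplatin itself lowered Id2 against DMSO (log2 −1.47, adjusted p = 0.00072), and the combination was 0.91 above DMSO (adjusted p = 0.0157). Id3 fell with cisplatin against DMSO (log2 −1.63, SE 0.24, adjusted p = 3.69e-06) and further with AU-15330 (log2 −2.95, adjusted p = 1.03e-10). Ccn2, a matricellular target, rose with cisplatin (log2 0.80, SE 0.19, adjusted p = 0.0012, and 0.55 with adjusted p = 0.0961 in replicates 1 to 3 alone). It fell with AU-15330 against DMSO (log2 −1.02, SE 0.20, adjusted p = 4.37e-05).

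With AU-15330, 8 of 12 tested receptors fell and 2 rose, and 7 of 11 transducers fell and 1 rose, where 37.2% of all tested genes fell and 36.2% rose. Amhr2, the type II receptor of anti-Mullerian hormone, went from 318 ± 134 CPM with DMSO to 1.09 ± 0.40 CPM with AU-15330 (log2 −8.19, SE 0.31, adjusted p = 5.35e-18), and from 318 ± 36.3 CPM with cisplatin to 1.10 ± 0.29 CPM with the combination (log2 −8.18, adjusted p = 9.65e-18). Bmpr2 rose by 0.38 with AU-15330 (adjusted p = 0.0328) and was not called without replicate 1, 3, 4 or 5 (adjusted p from 0.0647 to 0.102). Acvr2b, an activin type II receptor, fell with cisplatin (log2 −0.53, SE 0.15, adjusted p = 0.0046). Bmpr1a rose by 0.17 with the combination against cisplatin (adjusted p = 0.034), which was not called by DESeq2 (0.14, adjusted p = 0.067), without any of replicates 1 to 4 (adjusted p from 0.0668 to 0.141) or in replicates 4 to 6 alone (0.06, adjusted p = 0.425). Among transducers, the inhibitory Smad6 fell in each comparison of the rule (log2 −0.58 with cisplatin, −1.65 with AU-15330 and −1.06 with the combination against cisplatin, adjusted p = 4.01e-06, 5.67e-15 and 5.21e-11). Smad3 rose by 0.23 with cisplatin (adjusted p = 0.0141), which was 0.11 in replicates 1 to 3 alone (adjusted p = 0.51) and not called without replicate 4 or 5 (adjusted p = 0.0718 and 0.0651) or with only these groups in the fit (adjusted p = 0.0604). Smad2 rose by 0.18 with AU-15330 (adjusted p = 0.0199, and 0.0725 without replicate 1, with 0.12 and adjusted p = 0.135 in replicates 4 to 6 alone) and Tgif1, a corepressor, rose by 0.34 with the combination against cisplatin (adjusted p = 0.0039, and 0.126 in replicates 1 to 3 alone).

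Ligands and extracellular regulators moved in both directions. With AU-15330, 4 of 8 tested ligands rose and 3 fell, and 6 of 16 regulators rose and 8 fell, where 36.2% of all tested genes rose and 37.2% fell. With cisplatin, 6 of the 8 ligands rose, Inha and Lefty1 were not called (−0.24 and −0.46), and 9 regulators rose and 4 fell, where 26% of all rose and 25.7% fell. Gdf6 rose with cisplatin (log2 1.45, SE 0.15, adjusted p = 1.04e-08) and with AU-15330 (log2 1.99, SE 0.15, adjusted p = 5.76e-12), and Gdf11 with the combination against cisplatin (log2 1.35, SE 0.15, adjusted p = 1.67e-08). Inhbb, the beta B subunit of activins, rose with cisplatin (log2 1.41, SE 0.27, adjusted p = 0.000123), as Inhba did in the fit of all libraries. Unlike Inhba, it fell by 2.83 on the log2 scale with AU-15330 (SE 0.31, adjusted p = 7.32e-09) and dropped by 2.46 on that scale with the combination against cisplatin (SE 0.29, adjusted p = 2.75e-08). Ltbp4, which tethers latent TGF-beta to the matrix, was at 228 ± 5.30 CPM with DMSO, 116 ± 16.01 CPM with cisplatin, 8.69 ± 1.65 CPM with AU-15330 and 8.38 ± 0.98 CPM with the combination. Its log2 differences were −0.97 with cisplatin, −4.71 with AU-15330 and −3.79 with the combination against cisplatin (adjusted p = 5.72e-09, 1.48e-21 and 8.41e-20). Dcn, a proteoglycan that binds TGF-beta, rose with cisplatin (log2 2.42, SE 0.18, adjusted p = 2.51e-11). Fstl3, an activin antagonist, rose with AU-15330 (log2 1.44, SE 0.18, adjusted p = 7.96e-08), and the integrin subunit gene Itgb8 with the combination against cisplatin (log2 0.87, SE 0.22, adjusted p = 0.0013, and 0.0772 in replicates 1 to 3 alone).

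**Figure D4:**
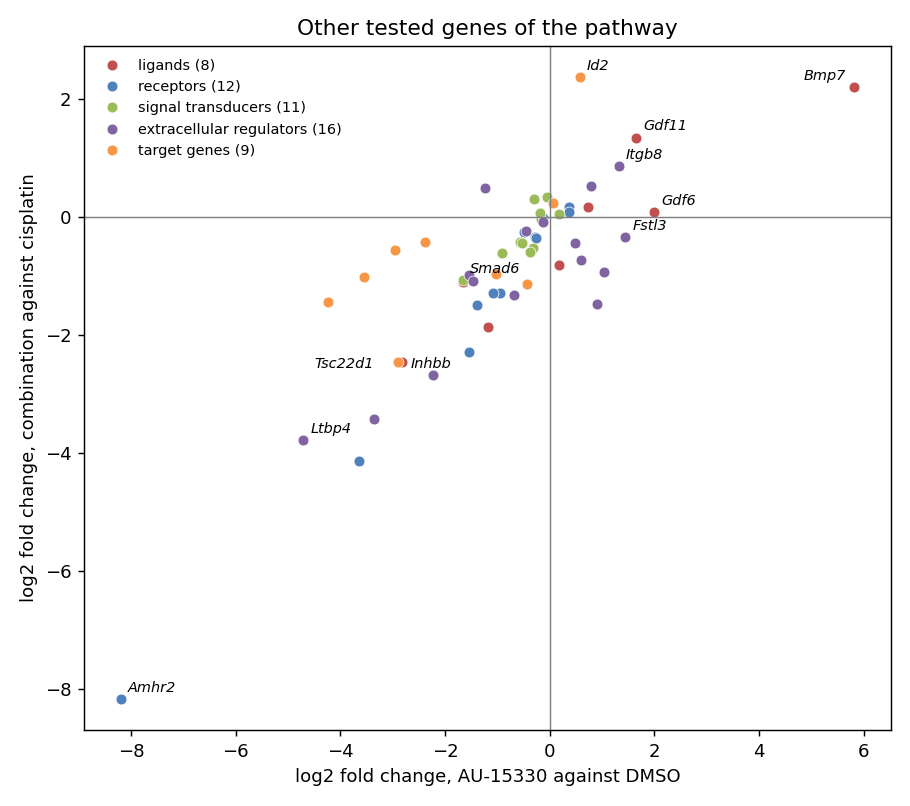
Log2 fold changes of the 56 other tested genes of the pathway, AU-15330 against DMSO on the horizontal axis and the combination against cisplatin on the vertical axis, colored by list with the number of genes. Amhr2 lies at −8.19 and −8.18 and Ltbp4 at −4.71 and −3.79, and Bmp7 at 5.81 and 2.20, which is labeled here although its low level kept it out of the naming rule.

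The genes whose levels over the 24 libraries were most like those of the 3 widest-ranging members were found by the root-mean-square difference of centered log2 CPM. For Gdf15 they were Gsta3, Kank3 and Ak5 (0.61, 0.63 and 0.65). For Tgfb3 they were Gramd4, Sh3bp4 and Pard6b (0.15, 0.18 and 0.18). For Bmp4 they were Dnpep, Tkt and G6pdx (0.17, 0.19 and 0.20). Kank3, for example, averaged 494 CPM with DMSO, 229.8 CPM with cisplatin, 7.19 CPM with AU-15330 and 6.76 CPM with the combination.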

How the data were processed

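Polyadenylated RNA of 24 libraries, 6 for each treatment, was sequenced, and the authors deposited unnormalized read counts by gene symbol. The submitters' processing notes name STAR 2.7.1a, DESeq2 1.36.0 and mm10. The counting tool, use of strand and annotation are not given in the sources used here. The 2 lanes of a library were summed, all 48 columns having been matched by label.

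Genes were tested in R 4.3.3 with edgeR 4.0.16 (TMM, filterByExpr, quasi-likelihood F test, 1 fit of 24 libraries with 20 residual degrees of freedom). Benjamini-Hochberg adjustment ran over 12941 genes with a threshold of 0.05, and SE is the log2 fold change over the square root of F. DESeq2 1.42.0 served as an alternative. The scripts were tested on simulated data. Positions and exon lengths came from a GENCODE annotation of GRCm38.

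The members and lists were chosen with earlier results of these data known. All 10 members are named. From each role list, the called genes with the largest rise and fall in 3 comparisons (mean log CPM at least 0) are named, except 1 gene that is not reported here. Lanes differed by 1.36 to 1.47 in chi-square per degree of freedom, and replicates by 2.3 to 122.6. For AU-15330 and the combination, deviations of same-numbered libraries correlated at 0.101 or more in 6 of 6 pairs. This does not settle whether numbers pair the libraries, since only 3 of 24 were closest to their own number in every other group. The reported tests used no pairing, and a replicate block changed no member's call in the combination against AU-15330.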

Additional observations from a re-analysis of the deposited data

Results flagged for a closer look

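In groups of 6 libraries, 112 groups of 28 named genes were searched for a library far from the rest, and 13 were found. Independent groups would give about 5.6 by chance, but these groups share libraries, so the 13 cannot be read against that number. The far library was replicate 1 in all 13, and the share of the group's range taken by its gap is given. For Tgfb3 with AU-15330 it was 0.68 (101 CPM, next 78.6 CPM). For Gdf6 it was 0.681 with DMSO and 0.663 with AU-15330, and for Fstl3 with DMSO 0.717. It was 0.853 for Acvr2b with the combination, where replicate 1 was lowest (4.02 CPM, next 6.68 CPM), while in the other 12 it was highest. For Dcn with cisplatin it was 0.627, for Ccn2 with the combination 0.626, and for Tsc22d1 with the combination 0.634. For Id3 it was 0.801 with AU-15330 and 0.636 with the combination, for Id2 0.768 and 0.851, and for Inhbb with AU-15330 0.815. The cause was not tested.

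The effect of AU-15330 differed between cells with and without cisplatin, by the interaction test, for 14 of the 28 named genes. The named genes that are not members were chosen for large changes, so this count cannot be read against the 33.7% of all tested genes with a called interaction. Among the members, the log2 difference came to −0.95 for Tgfb2, 0.52 for Tgfb3, −0.38 for Inhba, 0.64 for Bmp4 and 0.67 for Tgfbr2. Among the other genes it was −1.90 for Gdf6, 0.59 for Smad6, −2.38 for Dcn, 0.92 for Ltbp4, 2.39 for Id3, −1.77 for Fstl3, 0.39 for Tgif1, 1.80 for Id2 and 0.45 for Tsc22d1.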

How the results depend on the processing

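Across 14 alternatives, the members gave 872 values beside the reported ones, of which 829 kept their side of the threshold (9 of these, never past it, changed sign), 35 lost the threshold, 7 gained it and 1 reversed. The named pathway genes gave 364, of which 339 kept both and 25 lost the threshold. The reversal was Tgfb2 with AU-15330 against DMSO, 0.30 in replicates 4 to 6 only. Members called with cisplatin against DMSO numbered 5, from 3 to 6 with a replicate left out, and 2 in replicates 1 to 3 only or with only the 2 groups compared in the fit. Over all tested genes the share called was 51.7%, 45% to 52.7% with a replicate left out, 33.5% in replicates 1 to 3 only and 43.7% with the 2 groups. For the interaction they numbered 5, from 3 to 4 with a replicate left out, and 1 in replicates 1 to 3 only. The share of all tested genes was 33.7%, 25.2% to 35.7% with a replicate left out and 13.1% in replicates 1 to 3 only. Pathway genes called in replicates 1 to 3 only numbered 14 for the combination against AU-15330 (26 with all) and 15 for the interaction (24 with all). Of all tested genes, 21.7% were called there for the combination against AU-15330 (41.7% with all) and 13.1% for the interaction (33.7% with all). The cause was not tested, and fewer libraries enter these fits. With library totals the median of all tested genes moved to 0.126 for AU-15330 against DMSO, 0.104 for the combination against cisplatin and 0.139 for the combination against DMSO.

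Same-numbered libraries correlated over 0.1 in 23 of 36 pairs, and 3 of 24 libraries were closest to their own number in every other group. With the replicate block, Tgfbr1 was called with cisplatin against DMSO (adjusted p = 0.0406) and Tgfb1 for the interaction (0.31, adjusted p = 0.0203).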
